A study of Mus musculus with 6 samples.

Results

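The epithelial family of miR-200, miR-141 and miR-429 was followed through sequencing libraries of small RNA from mouse fetal liver. Its members were the 7 mature miRNAs mmu-miR-200a-3p, mmu-miR-200b-3p, mmu-miR-200c-3p, mmu-miR-141-3p, mmu-miR-429-3p, mmu-miR-200a-5p and mmu-miR-200b-5p (written below without the species prefix), taken by name from a table of 1626 mature mouse miRNAs, and all 7 were present. The study compared wild-type C57BL/6J embryos (WT, libraries 1 to 3) with C57BL/6J embryos homozygous for a deletion of the locus of miR-144 and miR-451 (KO, libraries 4 to 6). Neither group had a treatment in the labels, which give 5000000 cells as the input. Embryonic day, litter and pooling are not stated either, so every p-value refers to variation among libraries, part of which may be technical. Whole fetal liver is a mixture of cell types, mainly erythroid precursors, so a change in the number of cells of one type cannot be told apart from a change in RNA per cell.

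The family is made from a pair of genomic clusters and is best known for holding cells in an epithelial state, since its 3p arms repress the transcription factors Zeb1 and Zeb2, which in turn repress both clusters. Epithelial tissues express it strongly and mesenchymal and blood cells little. In fetal liver the epithelial compartment is made up of hepatoblasts, hepatocytes and the forming bile ducts.

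The 3p arms are shown with the seed, bases 2 to 8, in capitals, because the seed decides most target recognition and splits the family differently from the genome. The sequences are RefSeq's (GRCm38.p6), and 7 of 7 members matched by name.
miR-200b-3p: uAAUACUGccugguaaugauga
miR-429-3p: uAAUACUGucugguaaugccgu
miR-200c-3p: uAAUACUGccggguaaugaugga
miR-200a-3p: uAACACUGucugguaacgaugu
miR-141-3p: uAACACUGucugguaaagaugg
The 5p members share a seed of their own and are shown for the comparison of hairpin arms.
miR-200a-5p: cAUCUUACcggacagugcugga
miR-200b-5p: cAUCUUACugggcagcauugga

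By seed, miR-200b-3p, miR-429-3p and miR-200c-3p form a group of 3 and miR-200a-3p and miR-141-3p a group of 2, and no other mature mouse miRNA in the RefSeq table carries either seed. Counting positions from 1 at the 5′ end and writing the base of the first-named miRNA first, miR-200a-3p and miR-200b-3p differ within the seed at C4U. The closest pairs each join one member of either cluster. miR-200a-3p and miR-141-3p differ at C17A and U22G, and miR-200b-3p and miR-200c-3p differ at U11G and A22G over the first 22 bases. The sources used here do not say how reads matching several miRNAs were counted. The counts of miR-200a-3p and miR-141-3p differed by 48.5% to 88.2% of the larger count in the 6 libraries, and those of miR-200b-3p and miR-200c-3p by 2.42% to 78.1%, so neither pair was a copied count.

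By position, Mir200b, Mir200a and Mir429 lie within 1846 bases of each other on the minus strand of chromosome 4 (GRCm38), and Mir200c and Mir141 within 477 bases on the minus strand of chromosome 6. The hairpin of Mir200b covers chr4:156055681-156055750, that of Mir200a chr4:156054896-156054985 and that of Mir429 chr4:156053905-156053987. All 3 lie in introns of the protein-coding gene Ttll10. In GENCODE M21 Mir200b and Mir200a also lie in an intron of the non-coding transcript Gm13648-201, and Mir429 lies in an exon of it. The hairpin of Mir200c covers chr6:124718322-124718390 and that of Mir141 chr6:124717914-124717985. Both lie in an intron of the non-coding transcript Gm15884-201, and part of Mir141 overlaps an exon of the unclassified transcript Gm29008-201.

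The libraries held 16243894 to 27089133 miRNA counts. The deleted locus, miR-451a with both arms of miR-144, took 17.6% to 24.1% of counts in the WT libraries and 0.0214% to 0.0231% in the KO libraries, so the labels matched the genotype. Levels are given as TMM-scaled counts per 1000000 (CPM), a scaling to the typical miRNA that offsets the loss of the locus. WT library 1 stood apart in some miRNAs of tissues other than liver. It held 203.8 CPM of the muscle miRNA miR-206-3p, 424 CPM of the neural miR-9-5p and 126 CPM of miR-215-5p, an intestinal and kidney miRNA. The other 5 libraries held 6.97 to 41.8, 16.3 to 93.5 and 2.07 to 12.9 CPM of these. Of the other neural miRNAs listed, miR-124-3p was also highest in WT library 1 (7.81 CPM). miR-128-3p (462 CPM) and miR-219a-5p (68.0 CPM) lay there within the range of the other libraries. Libraries also differed in miR-122-5p, the main hepatocyte miRNA. WT library 3 held 117798 CPM of it and KO library 6 held 92264 CPM, against 29323 to 50130 CPM elsewhere. Erythroid miRNAs were abundant throughout, their 9 measured species summing to 148824 to 223263 CPM.

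The family was a small but well-measured part of the miRNA pool in both genotypes. The 7 members together took 0.0678%, 0.0600% and 0.114% of counts in WT libraries 1 to 3 (Wilson 95% intervals 0.0667 to 0.0689, 0.0591 to 0.0609 and 0.112 to 0.115) and 0.0664%, 0.0771% and 0.105% in KO libraries 4 to 6 (0.0651 to 0.0677, 0.0758 to 0.0785 and 0.104 to 0.106). The intervals cover counting error only. The share was highest in WT library 3 and KO library 6, the libraries rich in miR-122-5p.

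The level of miR-429-3p, the member farthest downstream in the first cluster, was 241 CPM in WT library 1, 223 in WT library 2 and 499.8 in WT library 3, and 136, 232 and 295 CPM in KO libraries 4, 5 and 6. It was highest in WT library 3, lowest in KO library 4, and the genotypes overlapped. Its cluster mate miR-200b-3p, which shares its seed, stood at 188, 168 and 382 CPM in WT and 114, 140.4 and 268 CPM in KO. The order of libraries was nearly the same, with WT library 3 and KO library 6 on top. miR-200a-3p, the member of this cluster with the other seed, stood at 100.3, 106 and 289 CPM in WT and 110.1, 146 and 243 CPM in KO. The same 2 libraries were again the highest, but here the remaining KO libraries lay above the remaining WT libraries.

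In the second cluster miR-200c-3p ran the other way, and miR-141-3p did so only in part. miR-200c-3p measured 183, 133 and 83.4 CPM in WT and 131, 128 and 108 CPM in KO, so WT library 3 and KO library 6, the richest in the first cluster, were its lowest. miR-141-3p, processed from the same short stretch, stood at 51.7, 36.8 and 34.1 CPM in WT and 50.6, 50.7 and 44.4 CPM in KO. Its lowest value was likewise in WT library 3. Both were highest in WT library 1.

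**Figure D1:**
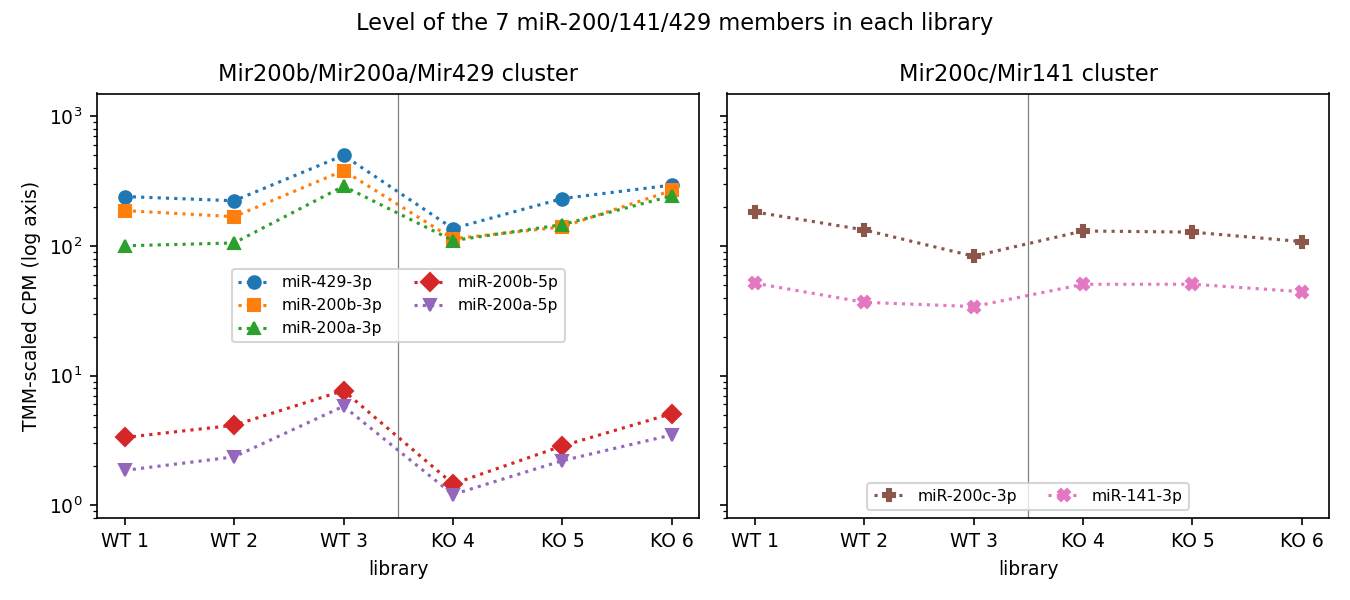
TMM-scaled CPM (log axis) of each member by library, 3 WT and 3 KO, with the 5 members of the Mir200b/Mir200a/Mir429 cluster on the left and the 2 of the Mir200c/Mir141 cluster on the right. Dotted lines only join the points of one member, and libraries of a genotype have no order. The left members peak in WT 3 and are next highest in KO 6, where miR-200c-3p on the right has its 2 lowest values.

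The 5p arms were scarce. miR-200b-5p stood at 3.33, 4.14 and 7.66 CPM in WT and 1.46, 2.87 and 5.10 CPM in KO, from 29 to 153 counts a library. miR-200a-5p stood at 1.86, 2.36 and 5.81 CPM in WT and 1.21, 2.21 and 3.49 CPM in KO, from 24 to 116 counts. Both were highest in WT library 3, second highest in KO library 6 and lowest in KO library 4. Of the arms outside the member list, miR-141-5p had 20 to 34 counts a library, miR-200c-5p 0 to 4 and miR-429-5p 0 or 1. A count of 0 allows up to 0.131 CPM for miR-200c-5p in WT library 3, and up to 0.111 and 0.182 CPM for miR-429-5p in WT library 2 and KO library 5, as counts of the library total without TMM scaling and taking 3 counts as the upper limit.

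In order of mean level the members ran miR-429-3p, miR-200b-3p, miR-200a-3p, miR-200c-3p, miR-141-3p, miR-200b-5p and miR-200a-5p, from rank 172 to rank 584 of the 1626 miRNAs. The 3p arms are 22 or 23 bases long, and the part of length or of unequal adapter ligation in this order was not tested. miR-429-3p exceeded miR-200b-3p within all 6 libraries, with ratios of 1.10 to 1.65. miR-200b-3p, miR-200a-3p and miR-200c-3p changed places between libraries and were not separated by their spread.

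The summed 3p arms of the first cluster varied more between libraries than those of the second. Summed, miR-200b-3p, miR-200a-3p and miR-429-3p averaged 732 ± 380.1 CPM over the WT libraries and 562 ± 226 CPM over the KO libraries (SD, n = 3 each), with the highest library at 3.25 times the lowest. miR-200c-3p and miR-141-3p averaged 174 ± 58.7 CPM over the WT libraries and 171 ± 15.9 CPM over the KO libraries (SD, n = 3 each), with the highest library at 2.0 times the lowest. Among 461 miRNAs with a mean of at least 10 CPM outside the deleted locus, the median of this highest-to-lowest ratio was 1.75. In the first cluster, 6.07% of these exceeded miR-429-3p (3.67), 9.11% exceeded miR-200b-3p (3.36) and 15.8% exceeded miR-200a-3p (2.88). In the second, 32.5% exceeded miR-200c-3p (2.19), itself above the median, and 68.8% exceeded miR-141-3p (1.52). The ratio of the first cluster to the second, which no scaling can alter, was 2.25, 2.93 and 9.96 in WT libraries 1 to 3 and 1.99, 2.90 and 5.29 in KO libraries 4 to 6. It was high in the same pair of libraries, and the genotypes overlapped.

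No member differed detectably between KO and WT. At an edgeR quasi-likelihood Benjamini-Hochberg adjusted p under 0.05, 0 of the 7 were called, where 0.458% of the 873 tested miRNAs outside the locus were (4 of 873, all higher in KO). All 7 passed the filter on low counts. At an unadjusted p under 0.05, 0 of the 7 and 96 of the 873 passed, and DESeq2 and limma-voom also called 0 of the 7. None of the 7 had KO libraries lying wholly outside the WT range, against 21.5% of the 873. The log2 folds of KO over WT for the first cluster were -0.54 (SE 0.41) for miR-429-3p, -0.50 (SE 0.44) for miR-200b-3p and 0.01 (SE 0.49) for miR-200a-3p. Those of the second were -0.12 (SE 0.30) for miR-200c-3p and 0.25 (SE 0.22) for miR-141-3p. The 5p arms gave -0.67 (SE 0.51) for miR-200b-5p and -0.53 (SE 0.55) for miR-200a-5p. Adjusted p from edgeR lay between 0.647 and 0.999. The median over the members was -0.50 and that over the 873 was -0.01. Most members come from the first cluster, so the median over the members mostly describes that cluster.

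**Figure D2:**
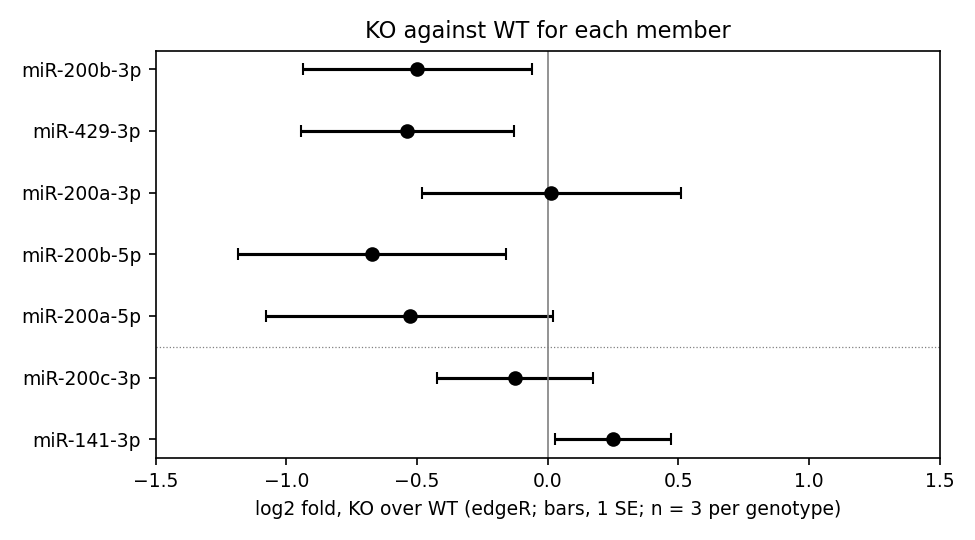
Log2 fold of KO over WT for each member from edgeR, with bars of 1 SE and n = 3 libraries per genotype; the dotted line separates the clusters. Values run from -0.67 for miR-200b-5p to 0.25 for miR-141-3p, and none passed the test.

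Single libraries moved these values. With each library left out in turn, the log2 fold ran from -0.82 to -0.16 for miR-429-3p, from -0.96 to -0.13 for miR-200b-3p, from -1.23 to -0.33 for miR-200b-5p and from 0.06 to 0.45 for miR-141-3p. For the first 3 of these the values nearest 0 came without WT library 3 and the lowest without KO library 6. For miR-141-3p the lowest came without WT library 3 and the highest without WT library 1. Without WT library 3, the summed first cluster had a log2 ratio of KO to WT means of 0.04 in place of -0.38. Without WT library 1, the library rich in miR-206-3p, miR-9-5p and miR-215-5p, miR-200c-3p stood at 0.17 and miR-200a-3p at -0.24. Adding the level of miR-122-5p to the model, which was decided after the values were seen, gave log2 folds from -0.65 for miR-200b-5p to 0.25 for miR-141-3p, and edgeR adjusted p from 0.277 to 0.753 left all 7 uncalled.

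Other miRNAs known from epithelia gave the comparison its setting. The list held 13 miRNAs, among them miR-203-3p and miR-205-5p of stratified epithelium, miR-183, miR-96 and miR-182 of sensory epithelium, miR-375-3p of endocrine cells and the miR-34b/c and miR-449 miRNAs of ciliated cells. Of 12 tested, 0 were called by edgeR, where 0.458% of all 873 were. All 12 had a log2 fold below 0, as did 52.3% of the 873, and the median was -0.52 against -0.01. The 12 include both arms of the miR-203 hairpin and related miRNAs such as miR-449a-5p and miR-449c-5p. They also share each library's scaling, so they are not separate observations. The groups of libraries did not overlap for 2 of the 12, miR-203-3p and miR-449a-5p, both lower in KO, a share no higher than the 21.5% among all 873. miR-449a-5p stood at 67.7, 65.8 and 50.8 CPM in WT and 29.1, 23.6 and 15.7 CPM in KO (log2 fold -1.43, SE 0.28; edgeR Benjamini-Hochberg adjusted p = 0.106). WT library 1 held the most of several in this list. It had 11.0 CPM of miR-205-5p, 126 CPM of miR-215-5p and 21.9 CPM of miR-183-5p, against at most 1.51, 12.9 and 10.8 CPM in any other library. The part of this library in the direction of the list was not tested.

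The signs of the correlations between members over the libraries followed the cluster, including for members whose seeds differ. Across the 6 libraries, all 11 pairs of members from the same cluster had a positive Pearson r of log2(CPM + 0.5), from 0.69 to 0.97, and all 10 pairs from different clusters a negative one, from -0.89 to -0.51. Of the 21 pairs, 8 had an exact two-sided permutation p that was under 0.05 after Benjamini-Hochberg adjustment over the 21, 7 of them within a cluster. All 7 were of the first cluster, to which every same-cluster pair belongs except miR-200c-3p with miR-141-3p. Pairs of 3p arms from the same cluster with different seeds did not pass (adjusted exact permutation p from 0.0519 to 0.165). On Spearman's rho 0 of the 21 passed, and 4 had an unadjusted exact permutation p under 0.05. Members share each library's scaling and, within a hairpin or cluster, their precursor, so the pairs are not separate observations.

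The seed-sharing cluster mates miR-200b-3p and miR-429-3p gave r = 0.95 (exact permutation p = 0.00417, adjusted 0.0292) and rho = 0.94 (exact permutation p = 0.0167, adjusted 0.0875), and r = 0.91 without WT library 3 and KO library 4, the 2 libraries farthest from the median. Their seed partner in the other cluster, miR-200c-3p, gave r = -0.65 with miR-200b-3p (exact permutation p = 0.161, adjusted 0.178; rho = -0.49, exact permutation p = 0.356, adjusted 0.373) and r = -0.35 without the same libraries. For the other seed, miR-200a-3p with miR-141-3p gave r = -0.51 (exact permutation p = 0.242, adjusted 0.242; rho = -0.60, exact permutation p = 0.242, adjusted 0.338). Without WT library 3 and KO library 6 the r of this pair was 0.28, so the negative relation was not seen without these libraries.

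The strongest opposition was between miR-200a-3p and miR-200c-3p, with r = -0.89 (exact permutation p = 0.00139, the smallest possible, adjusted 0.0292) and rho = -1.0 (exact permutation p = 0.00278, adjusted 0.0583), and r = -0.59 without WT library 3 and KO library 6. Within the first cluster, miR-200a-3p and miR-200b-3p gave r = 0.83 (exact permutation p = 0.0472, adjusted 0.0992; rho = 0.49, exact permutation p = 0.356, adjusted 0.373), but r = -0.40 without those 2 libraries. The second cluster's pair, miR-200c-3p and miR-141-3p, gave r = 0.69 (exact permutation p = 0.125, adjusted 0.165; rho = 0.60, exact permutation p = 0.242, adjusted 0.338), and r = -0.06 without WT libraries 1 and 3. Both of these relations within a cluster were therefore not seen without the libraries left out. Dropping the libraries farthest from the median narrows the range of the first-named member, which by itself can lower r.

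Each genotype held one of the libraries that stood out, WT library 3 and KO library 6, so the following values do not remove their part in the pattern. With each library centred on its genotype mean, the 11 pairs within a cluster ran from 0.90 to 0.98 and the 10 across clusters from -0.88 to -0.56. The signs of all 21 pairs were also kept with each library left out in turn. Without WT library 1 the pairs across clusters ran from -0.92 to -0.41, and without WT library 3 from -0.75 to -0.04. Without the 2 libraries farthest from the median, signs were not kept: pairs within a cluster ran from -0.40 to 0.91 and pairs across clusters from -0.81 to 0.28.

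**Figure D3:**
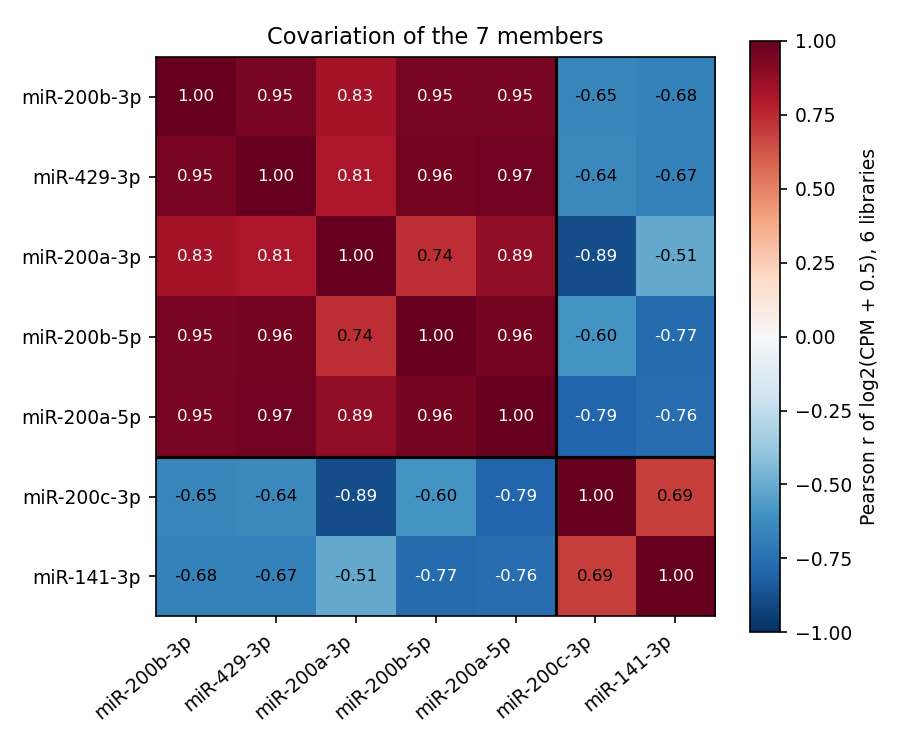
Pearson r of log2(TMM-scaled CPM + 0.5) over the 6 libraries for each pair of members, with black lines between the clusters. Pairs within a cluster run from 0.69 to 0.97 and pairs across clusters from -0.89 to -0.51, whether or not they share a seed.

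Summed levels of other cell types' miRNAs were set beside the members. The 6 hepatocyte miRNAs (miR-122, miR-192, miR-194, miR-802 and miR-148a products) summed to 37953, 60607 and 138244 CPM in WT and 45657, 53209 and 107583 CPM in KO, so their sum was highest in WT library 3 and KO library 6. Among the listed miRNAs, miR-802-5p departed from this, with 62.0 CPM in KO library 4 and 44.1 CPM in KO library 6. The rest of the list had WT library 3 and KO library 6 as the 2 highest libraries. Most of the hepatocyte sum was miR-122-5p, at 29323 to 117798 CPM a library. With miR-200a-3p this sum gave r = 0.94 (exact permutation p = 0.0139, adjusted over 63 relations 0.146; rho = 0.83, exact permutation p = 0.0583, adjusted 0.216), and r = 0.38 without those 2 libraries. With miR-200c-3p it gave r = -0.93 (exact permutation p = 0.00556, adjusted 0.117; rho = -0.83, exact permutation p = 0.0583, adjusted 0.216), and r = -0.79 without them. The 2 endothelial miRNAs, both arms of the miR-126a hairpin and also highest in those libraries, gave the same r = 0.94 with miR-200a-3p (exact permutation p = 0.0361, adjusted 0.194; rho = 0.83, exact permutation p = 0.0583, adjusted 0.216), and r = 0.35 without those libraries.

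The sum of the 6 mesenchymal miRNAs (miR-199, miR-214, miR-143 and miR-145a products) ranked the libraries exactly as miR-200b-3p did, with r = 0.95 (exact permutation p = 0.00139, adjusted 0.0875; rho = 1.0, exact permutation p = 0.00278, adjusted 0.175), and r = 0.93 without WT library 3 and KO library 4. The sum of the 4 pancreas miRNAs gave a similar r = 0.93 with miR-200b-3p (exact permutation p = 0.00833, adjusted 0.122; rho = 0.94, exact permutation p = 0.0167, adjusted 0.21), and r = 0.64 without WT library 3 and KO library 6. It was mostly miR-375-3p, at 39.4 to 91.7 CPM a library in sums of 45.6 to 111 CPM. The mesenchymal miRNAs summed to 2754, 2301 and 3170 CPM in WT and 2063, 2208 and 2993 CPM in KO. Most of this was miR-143-3p, at 1318 to 2219 CPM a library, which by itself ranked the libraries as miR-200b-3p did. The others did not share that order. miR-199a-3p (849 CPM) and miR-214-3p (37.9 CPM) were highest in WT library 1 and miR-199b-5p (15.3 CPM) in KO library 5. miR-199a-5p (113 CPM) was highest in WT library 3 and miR-145a-5p (26.7 CPM) in KO library 6. The 9 erythroid miRNAs in the table gave r = 0.77 with miR-200c-3p (exact permutation p = 0.0542, adjusted 0.194; rho = 0.89, exact permutation p = 0.0333, adjusted 0.216), and r = 0.72 without WT libraries 2 and 3. Most of the erythroid sum was miR-16-5p and miR-486a-5p, and the list had no common order of libraries. Like miR-200c-3p, miR-486a-5p, miR-191-5p (1270 CPM) and miR-425-5p (2588 CPM) were highest in WT library 1. Highest in WT library 2 were miR-16-5p, miR-15b-5p (14386 CPM) and miR-363-3p (14.6 CPM). KO library 5 held the most miR-22-3p (4127 CPM), miR-185-5p (2084 CPM) and miR-210-3p (1663 CPM). Of the 63 relations between the 7 members and 9 lists, 0 passed the adjustment on r or on rho, and 13 had an unadjusted exact permutation p under 0.05 on r and 9 on rho.

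The 4 muscle miRNAs, at 409 CPM in WT library 1, 83.5 in KO library 4 and 13.4 to 20.5 in the other 4, gave r = 0.78 with miR-200c-3p (exact permutation p = 0.0625, adjusted 0.206; rho = 0.77, exact permutation p = 0.103, adjusted 0.341), and r = 0.43 without those 2 libraries. In these lists, too, edgeR called 0 miRNAs, which at 0.458% called among all 873 and at most 9 miRNAs a list says little of any list, with median log2 folds of -0.20 for hepatocyte, -0.06 for erythroid, -0.19 for mesenchymal and -1.99 for muscle miRNAs. Medians were 0.11 for endothelial, -0.42 for pancreas, -0.91 for neural and -0.26 for myeloid miRNAs, again with 0 called. The genotypes did not overlap for 3 of the 9 erythroid miRNAs (2 higher and 1 lower in KO) and for 1 of the 4 neural ones (higher), against 21.5% of all 873. miR-375-3p is in both the pancreas list and that of other epithelial miRNAs. The part of hepatocyte, mesenchymal, erythroid or muscle content in the levels of the family was not tested.

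**Figure D4:**
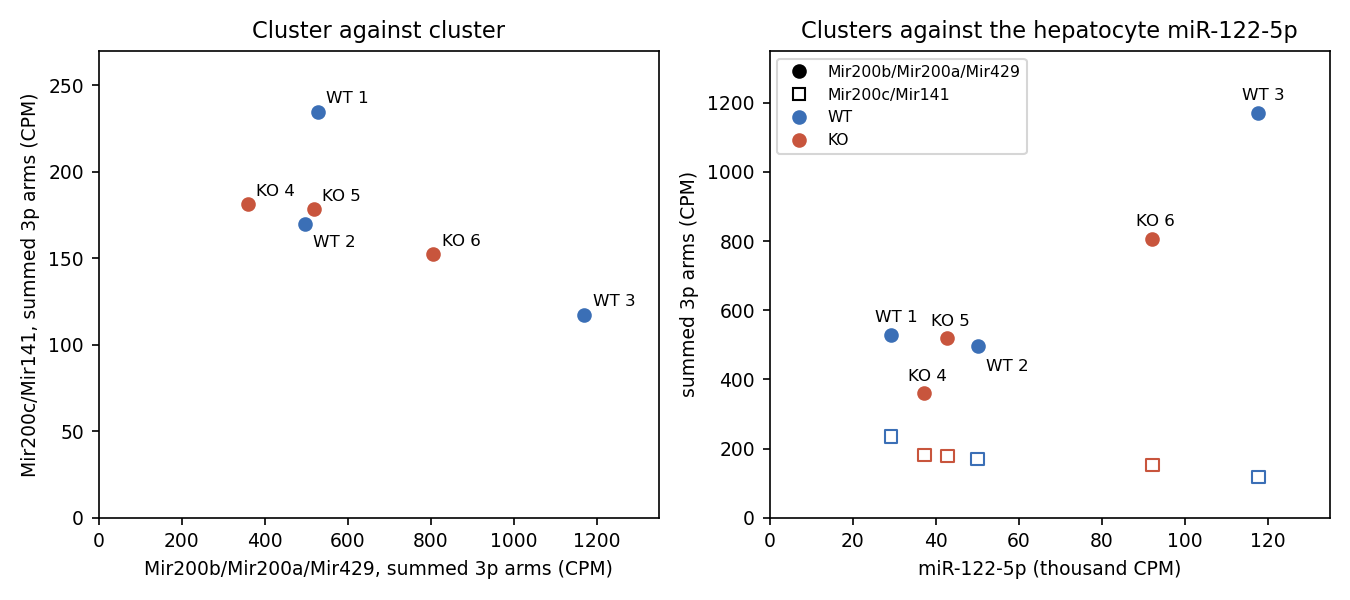
Left, summed 3p arms of the Mir200c/Mir141 cluster against those of the Mir200b/Mir200a/Mir429 cluster (CPM, linear axes from 0) in the 6 libraries. Right, both sums against miR-122-5p; the first cluster is highest (1171 and 806 CPM) and the second lowest (117 and 152 CPM) in WT 3 and KO 6, the libraries with the most miR-122-5p.

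One member of each cluster, miR-200b-3p and miR-200c-3p, was compared with all other miRNAs. Of 459 tested miRNAs with a mean of at least 10 CPM, those with the highest r to miR-200b-3p over the 6 libraries were miR-99b-5p (0.98), the imprinted Dlk1-Dio3 miRNA miR-127-3p (0.98), the mesenchymal miR-143-3p (0.97), miR-130a-3p (0.96) and the Dlk1-Dio3 miRNA miR-668-3p (0.96). For miR-200c-3p they were miR-17-5p (0.97), miR-18b-5p (0.96) and miR-18a-5p (0.96), members of related clusters linked to proliferation, miR-425-3p (0.92) and the erythroid miR-486a-5p (0.90). The counts of miR-18a-5p and miR-18b-5p were near-identical, so this pair is a single signal. miR-143-3p also made up most of the mesenchymal sum above, so its place here is not a separate result. miR-122-5p ranked 59 for miR-200b-3p (r = 0.84) and 431 for miR-200c-3p (r = -0.93). These values describe the 6 libraries, were picked as the highest of 459 and carry no test. Since the 2 references themselves had r = -0.65, their nearest miRNAs could hardly be shared, and other members of a cluster may have other neighbours.

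Read within a library, miR-200a-3p was higher relative to its cluster mates in all 3 KO libraries than in any WT library, a comparison chosen after its values were seen. Its count divided by that of miR-200b-3p was 0.535, 0.627 and 0.758 in WT libraries 1 to 3 and 0.969, 1.04 and 0.908 in KO libraries 4 to 6. Every KO library lay above every WT library, with a mean difference of 0.62 on the log2 scale. Against miR-429-3p the ratio was 0.417, 0.472 and 0.579 in WT and 0.807, 0.630 and 0.824 in KO, again without overlap and with a difference of 0.63. Both ratios share the miR-200a-3p count, and their denominators had r = 0.95 over the libraries, so they are not separate observations.

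Both differences gave an exact two-sided permutation p of 0.1, the smallest that 3 against 3 libraries allow, and 0.35 after adjustment over the 7 ratios computed. Among 392 pairs of neighbouring hairpins within 10000 bases, 9.18% had ratios that did not overlap between the genotypes. With each library left out in turn the difference against miR-200b-3p stayed between 0.49 and 0.75. The ratio of the other mates, miR-429-3p over miR-200b-3p, averaged 1.31 ± 0.0221 in WT and 1.32 ± 0.294 in KO (SD, n = 3 each). miR-141-3p, the seed partner of miR-200a-3p, had ratios to miR-200c-3p of 0.282, 0.276 and 0.409 in WT and 0.388, 0.396 and 0.411 in KO, which overlapped through WT library 3 (exact two-sided permutation p = 0.3, adjusted 0.525). Read by seed, the AACACUG arms stood to the AAUACUG arms at 0.249, 0.271 and 0.335 in WT and 0.422, 0.393 and 0.429 in KO. miR-200a-3p is the larger part of the AACACUG arms, so this ratio is not a separate observation either.

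**Figure D5:**
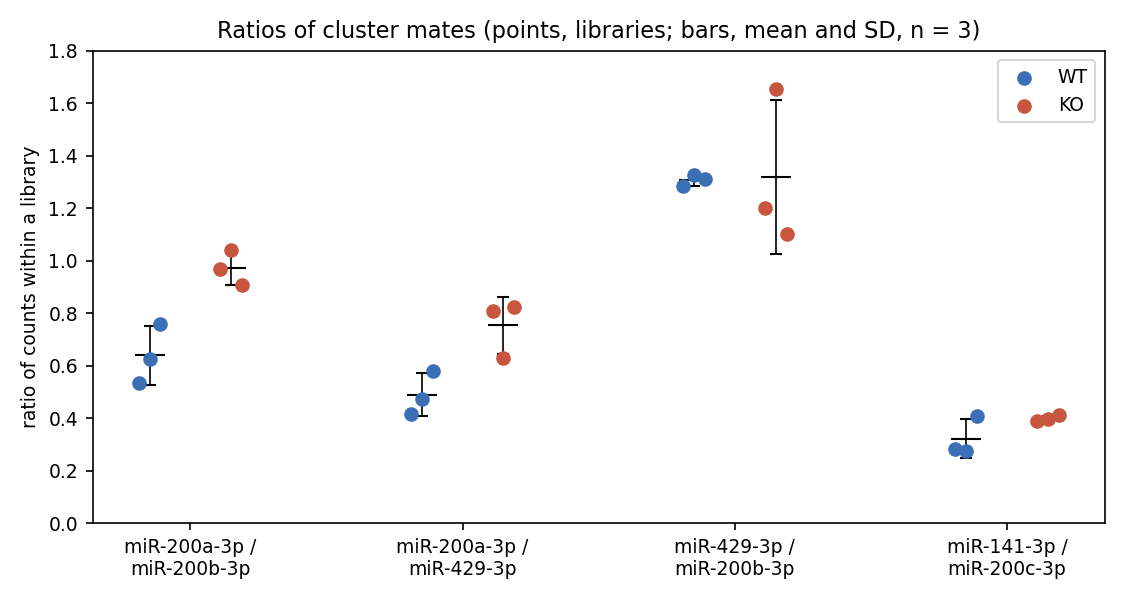
Ratios of counts between cluster mates within each library (points), with mean and SD (bars), n = 3 libraries per genotype, on a linear axis from 0. The first 2 ratios, those of miR-200a-3p to its mates, do not overlap between WT and KO, and the other 2 do.

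The 5p arms were compared with their 3p partners next. The 5p arm made up 1.82%, 2.19% and 1.97% of the counts of the miR-200a hairpin in WT and 1.09%, 1.49% and 1.41% in KO, a difference of -0.59 on the log2 scale of 5p over 3p (SE 0.25). The groups of libraries did not overlap, as for 12.2% of 262 hairpins outside the locus. The miR-200a-3p count is the denominator here, so this is not separate from the ratios to its mates. limma gave an unadjusted p of 0.0362 and a Benjamini-Hochberg adjusted p of 0.725 over the hairpins. The miR-200b hairpin (log2 difference -0.26, SE 0.26) and the miR-141 hairpin (-0.31, SE 0.29) both had a limma adjusted p of 0.945. By this test 0.0% of the 262 hairpins were called, and 15 had an unadjusted p under 0.05. miR-200a-5p relative to miR-200b-5p overlapped between the genotypes, at 0.557 to 0.758 in WT and 0.684 to 0.828 in KO (exact two-sided permutation p = 0.2, adjusted 0.467).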

How the data were processed

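Libraries were prepared with a NEXTflex kit and run on a HiSeq2000, per the labels. HITS-CLIP stands in the design text of the series, but every sample is labelled as miRNA sequencing and was treated as such. The authors deposited raw read counts per mature miRNA and a percent column per library, which equalled the count over the library total with a largest difference of 4.96e-09. Among tools, cutadapt is named in the submitters' processing notes, while aligner, annotation release and build are not given in the sources used here. Of 1626 miRNAs, 61 had 0 counts throughout.

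Counts were tested over the whole table in edgeR 4.0.16 (R 4.3.3) with the quasi-likelihood test, TMM scaling and filterByExpr, which kept 876 miRNAs. P-values were Benjamini-Hochberg adjusted over these, and 0.05 was the threshold. SE is the absolute log2 fold over the square root of F. DESeq2 1.42.0 and limma-voom (limma 3.58.1), other scalings, no filter and each library left out were alternatives. Arm ratios, log2((5p + 1)/(3p + 1)), were tested with limma's trend method where both arms of a hairpin averaged 10 counts or more. Correlations used log2(CPM + 0.5) and exact permutation over the 720 pairings of 6 libraries. Scripts were tested on simulated data. The miRNAs named were the members, their other arms, the listed miRNAs where a result turned on them, and the 5 nearest to miR-200b-3p and to miR-200c-3p. Members and lists were chosen with earlier results of these data known. Cell type lists were hepatocyte, erythroid, mesenchymal, endothelial, muscle, pancreas, neural, myeloid and other epithelial miRNAs.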

Additional observations from a re-analysis of the deposited data

How the results depend on the processing

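All 7 members stayed uncalled under every alternative run (edgeR, DESeq2 and limma-voom adjusted p at or above 0.160). Signs turned for miR-200a-3p, whose log2 fold of 0.01 became -0.058 with DESeq2, -0.062 with RLE scaling and -0.031 when the locus was dropped before scaling, and ran from -0.37 to 0.61 with single libraries left out. miR-200c-3p turned to 0.24 with no scaling factor and ran from -0.45 to 0.17, and miR-200a-5p from -0.97 to 0.048, with single libraries left out. Over all miRNAs outside the locus, 4 were called higher in KO by edgeR, 10 by DESeq2, 1 with RLE scaling, upper-quartile scaling or the locus removed, 58 with no scaling factor, 15 with the miR-122-5p covariate, 0 without WT library 3 and KO library 6 together, and 0 to 1 with single libraries left out. Called lower were 0 by edgeR, 2 by DESeq2, 1 with the covariate and 0 with any single library left out. The cause of these differences was not tested. The pairs of members with an adjusted exact permutation p under 0.05 numbered 8, against 13 with genotype-centred values, whose permutations are not exact, and 0 with any library left out, where 5 libraries remain. With 5 libraries the exact p takes few values and can hardly pass the adjustment, so this 0 says little. The summed level of the first cluster ran from -0.75 to 0.04 and that of the second from -0.32 to 0.25 (log2, KO over WT) with single libraries left out. With no scaling factor they were -0.04 and 0.34, against -0.38 and -0.03 with TMM, and -0.44 and -0.13 when the locus was dropped before scaling. No paired analysis was possible because the replicate numbers of WT (1 to 3) and KO (4 to 6) are not shared. Counts of 20 to 153 limit the precision of the 5p arms.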
